A study of Bos taurus with 39 samples.

Results

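The transcripts described here are 9 genes of lactose synthesis and glucose entry, taken by name from the 21661 features of the table: LALBA, B4GALT1, UGP2, SLC35A2, PGM1, SLC2A1, SLC2A3, HK1 and HK2. Each of the 9 had 1 row and reached at least 1 RPKM, reads scaled by gene length and by the library's mapped reads, in all 39 cows. The RNA came from milk somatic cells, the mixed cells shed into milk, of Holstein dairy cows, taken with a plastic cannula and extracted with Trizol. By their labels, 22 cows were LOW RFI and 17 HIGH RFI, and the series compares these extremes of feed efficiency. RFI is read here as residual feed intake, in which a lower value means less feed eaten than predicted. The sources used here give no age, parity, stage of lactation or diet, and names such as HIGH RFI 17 are labels that pair no animals.

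Lactose is built in the Golgi of the mammary secretory cell by lactose synthase, a complex of the galactosyltransferase B4GALT1 and alpha-lactalbumin, the milk protein encoded by LALBA, which makes the enzyme accept glucose. Its other substrate, UDP-galactose, comes from glucose 6-phosphate through phosphoglucomutase (PGM1) and UDP-glucose pyrophosphorylase (UGP2), and enters the Golgi through the carrier SLC35A2. Glucose enters cells through transporters such as SLC2A1 and the high-affinity SLC2A3, and hexokinases such as HK1 and HK2 phosphorylate it, in blood-derived cells as well as in epithelium.

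The recovered library totals lay between 41637742 and 204905052 mapped reads with a median of 89545831. Between 257 reads (HK2 in HIGH RFI 17) and 2660403 reads (LALBA in LOW RFI 20) lay behind a single member value. The milk protein genes took from 0.103% to 80.1% of a library's RPKM, with a median of 22.5% in LOW RFI and 8.52% in HIGH RFI cows. Markers of several cell types were present, with median levels of 28064 RPKM for CSN2 (beta-casein), 455.5 RPKM for KRT19 (an epithelial keratin), 795.4 RPKM for CD68 (macrophages), 17.6 RPKM for CXCR1 (neutrophils) and 36.6 RPKM for CD3E (T cells). Markers of 1 cell type differed widely, with medians of 78.5 RPKM for CSF1R and 4.22 RPKM for MRC1 (macrophages) and 385.7 RPKM for S100A12 (neutrophils). These levels therefore do not rank the cell types. The macrophage gene MARCO stayed at a median of 0.0904 RPKM, the B cell gene MS4A1 at 0.454 RPKM and the red cell genes HBB and ALAS2 at 0. LOW RFI 20, HIGH RFI 17, HIGH RFI 11 and LOW RFI 18 were the 4 libraries least correlated with the rest. In such bulk RNA, fewer cells of a type and less RNA per cell cannot be told apart.

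LALBA was by far the most abundant and the most variable of the 9. In LOW RFI cows its level ran from 32.7 RPKM through a median of 2911 RPKM to 12655 RPKM, and in HIGH RFI cows from 8.05 RPKM through 1480 RPKM to 15770 RPKM. Both ends of the range were HIGH RFI animals, and the highest level was 1959 times the lowest. On the log2(RPKM + 1) scale its standard deviation was 2.62, larger than that of 99.9% of the 10652 tested genes. Its share of the milk protein RPKM stayed between 1.70% and 4.31% with a median of 2.92%, the other genes of that set being the caseins, PAEP (beta-lactoglobulin) and GLYCAM1.

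B4GALT1, the catalytic subunit of lactose synthase, varied less. It ran from 38.6 through 84.5 to 168.8 RPKM in LOW RFI and from 43.5 through 68.7 to 137.7 RPKM in HIGH RFI cows, a 4.38-fold range over all cows. Its log2 standard deviation of 0.56 was larger than that of 42.4% of tested genes. The ratio of LALBA to B4GALT1 RPKM therefore ranged from 0.138 in HIGH RFI 12 to 117.9 in LOW RFI 16 with a median of 31.0, and was above 1 in 36 cows.

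The genes of UDP-galactose supply were expressed at lower levels. UGP2 ran from 7.91 through 29.4 to 81.3 RPKM in LOW RFI and from 11.6 through 38.4 to 82.4 RPKM in HIGH RFI cows. PGM1 ran from 7.08 through 20.0 to 41.6 RPKM and from 4.91 through 24.3 to 37.5 RPKM. SLC35A2 ran from 3.01 through 8.75 to 11.8 RPKM and from 3.84 through 9.27 to 11.5 RPKM. The groups overlapped over nearly the whole range for all 3. SLC35A2 was the least variable member, with a log2 standard deviation of 0.41, larger than that of 13.3% of tested genes, against 72.6% for UGP2 and 57.9% for PGM1.

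Of the glucose transporters, SLC2A3 varied far more than SLC2A1. SLC2A3 ran from 10.9 through 105.0 to 1227 RPKM in LOW RFI and from 6.24 through 179.5 to 990.4 RPKM in HIGH RFI cows, a 196.7-fold range. SLC2A1 ran from 15.8 through 47.6 to 95.6 RPKM and from 16.4 through 61.5 to 91.0 RPKM, a 6.04-fold range. The log2 standard deviation of SLC2A3 (1.63) exceeded that of 98.8% of tested genes, and that of SLC2A1 (0.68) exceeded 61.0%. SLC2A1 was above SLC2A3 in 4 cows only, and the ratio of SLC2A1 to SLC2A3 went from 0.0534 in LOW RFI 4 through a median of 0.392 to 2.63 in HIGH RFI 17.

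The hexokinases HK1 and HK2 were at closely similar levels. HK1 ran from 1.76 through 29.7 to 70.5 RPKM in LOW RFI and from 1.26 through 42.6 to 83.7 RPKM in HIGH RFI cows. HK2 ran from 2.56 through 25.9 to 76.3 RPKM and from 1.08 through 46.8 to 78.5 RPKM. The same cow, HIGH RFI 17, was lowest and the same cow, HIGH RFI 12, highest for both. The HK1 to HK2 ratio stayed between 0.663 and 1.94 with a median of 1.05, although each gene ranged over 66.6-fold (HK1) or 72.7-fold (HK2). In the reference annotation HK1 overlaps HKDC1 and TACR2, which did not exceed 1.07 and 0.753 RPKM here.

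**Figure D1:**
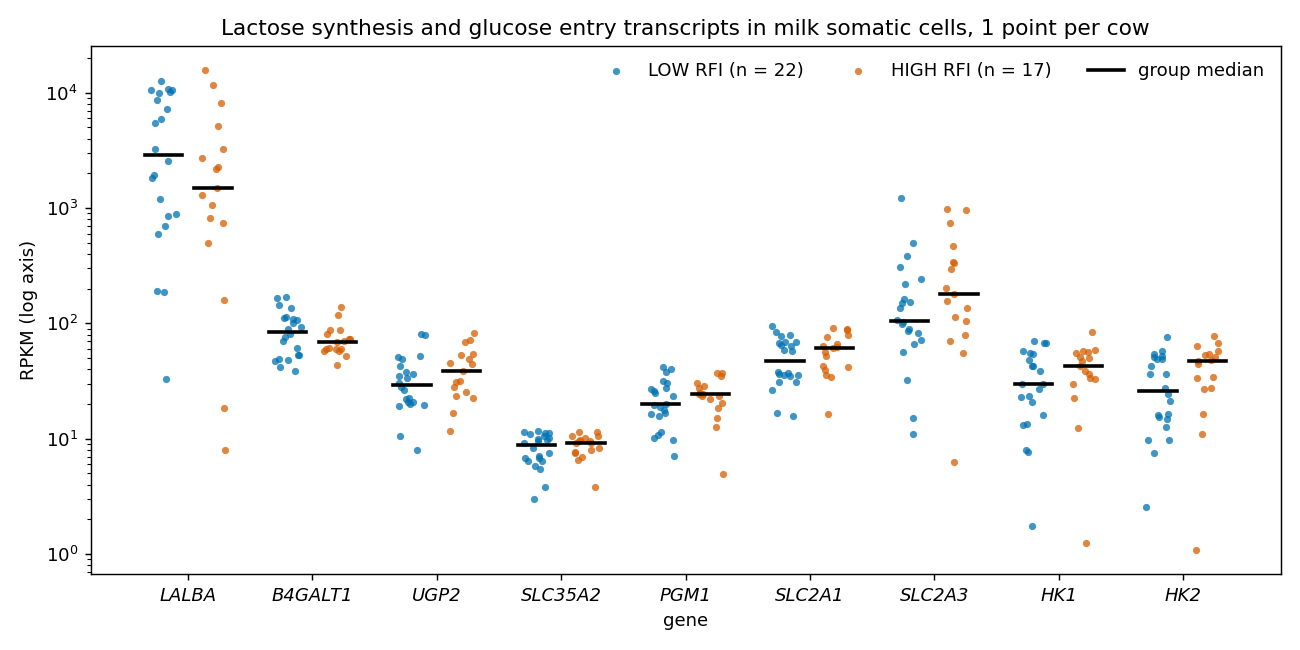
RPKM (log axis) of the 9 genes in each of 22 LOW RFI (blue) and 17 HIGH RFI (orange) cows, 1 point per cow, with black bars at the group medians. The groups overlap for every gene, and LALBA (8.05 to 15770 RPKM) and SLC2A3 (6.24 to 1227 RPKM) are the most spread out.

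Cows at opposite ends of LALBA differed across the other genes too. HIGH RFI 12, lowest for LALBA at 8.05 RPKM, held 83.7 RPKM of HK1, 78.5 RPKM of HK2, 91.0 RPKM of SLC2A1 and 58.2 RPKM of B4GALT1. HIGH RFI 17, highest at 15770 RPKM of LALBA, held 1.26 RPKM of HK1, 1.08 RPKM of HK2, 16.4 RPKM of SLC2A1 and 137.7 RPKM of B4GALT1. Milk protein genes took 0.103% of the RPKM in the former library and 80.1% in the latter. A high share for these genes leaves a smaller share of a library's reads to all others, so values after rescaling each library without the milk protein genes are given below beside those as deposited.

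By median RPKM the 9 genes were ordered LALBA (2173), SLC2A3 (135.3), B4GALT1 (73.1), SLC2A1 (57.2), HK1 (38.4), HK2 (36.3), UGP2 (31.7), PGM1 (23.5) and SLC35A2 (9.17). Neighbours in this order were compared within cows by a two-sided sign-flip permutation test with 100000 resamples, adjusted over the 8 pairs. LALBA was above SLC2A3 in 32 of 39 cows (adjusted p = 2.67e-05), SLC2A1 above HK1 in 34 (adjusted p = 2.67e-05) and PGM1 above SLC35A2 in 39 (adjusted p = 2.67e-05). SLC2A3 was above B4GALT1 in 27 cows (adjusted p = 0.0116), B4GALT1 above SLC2A1 in 25 (adjusted p = 0.0022) and UGP2 above PGM1 in 26 (adjusted p = 0.00522). HK1 and HK2 (higher in 22 cows, adjusted p = 0.136) and HK2 and UGP2 (higher in 18, adjusted p = 0.431) did not differ beyond their spread. Within a single group, 3 of these steps no longer passed: SLC2A3 above B4GALT1 in LOW RFI (adjusted p = 0.259), UGP2 above PGM1 in LOW RFI (adjusted p = 0.108) and B4GALT1 above SLC2A1 in HIGH RFI (adjusted p = 0.178).

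Between the RFI groups, none of the 9 genes passed in limma-trend on log2(RPKM + 1), with p adjusted by Benjamini-Hochberg over all tested genes. Of the 10652 tested genes 0% passed and 5.95% (634) had an unadjusted p under 0.05, among them none of the 9. LALBA was 1.00 higher in LOW RFI on the log2 scale (SE 0.80, 95% interval -0.61 to 2.61, adjusted p = 0.770), with 14 of 22 LOW RFI cows above the HIGH RFI median. B4GALT1 was at 0.19 (SE 0.18, adjusted p = 0.781), also with 14 of 22 LOW RFI cows above that median. The intervals of both include 0. Leaving out 9 libraries (8 LOW RFI, 1 HIGH RFI) that have a mark in their column name, LALBA was at 0.17 and B4GALT1 at 0.0073.

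The other 7 genes had a difference below 0, as did 73.0% of all tested genes. SLC2A3 was at -0.64 (SE 0.50, adjusted p = 0.770), with 16 of the 22 LOW RFI animals under the median of the other group. HK2 was at -0.46 (SE 0.37), HK1 at -0.34 (SE 0.37), UGP2 at -0.29 (SE 0.24) and SLC2A1 at -0.24 (SE 0.22). PGM1 was at -0.16 (SE 0.21) and SLC35A2 at -0.11 (SE 0.14). The median of the 9 was -0.24, against -0.12 over all tested genes. The neutrophil score, the mean log2(RPKM + 1) of 7 neutrophil markers, had a median of 4.16 in LOW RFI and 5.44 in HIGH RFI cows, and the macrophage score 4.45 and 4.99. With both scores as covariates SLC2A3 moved to 0.28 and HK1 to 0.043, and with the month tag of the column names as a factor they moved to 0.18 and 0.025. Whether these cells account for the difference was not tested. Without HIGH RFI 17 the values of HK1, HK2, SLC2A3 and PGM1 became -0.59, -0.72, -0.93 and -0.28, still not past the threshold. Without the 4 least correlated libraries, LALBA was at 0.94, HK2 at -0.51 and SLC2A3 at -0.48, and none passed.

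UGP2 alone passed when libraries were weighted by quality, at -0.61 (adjusted p = 0.0187) with limma-voom on recovered reads and at -0.54 (adjusted p = 0.0377) with limma array weights. These fits called 18.1% and 20.9% of all tested genes, so 1 of 9 members is no more than the background. With the month tag added, an alternative chosen after seeing the data, neither fit called a member, with smallest adjusted p of 0.259 and 0.177. All 6 cows tagged February 2020 were HIGH RFI, so month and group cannot be told apart there. The same holds for October 2019 (2 cows, LOW RFI), March 2020 (1 cow, LOW RFI) and May 2020 (2 cows, HIGH RFI).

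Within 2019 (13 LOW RFI and 4 HIGH RFI cows) LALBA differed by 2.84 in limma (SE 1.38, unadjusted p = 0.0463, adjusted p = 0.766). In that 2019 contrast 218 of the 10652 tested genes had an unadjusted p under 0.05, and 0 passed after adjustment. Within 2020 (9 and 13 cows) LALBA differed by 0.68 (SE 1.05, adjusted p = 0.783). The difference between the years (-2.16, SE 1.73, adjusted p = 1.00) did not pass. This interaction was called for 0% of all tested genes, with 7 at an unadjusted p under 0.05.

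**Figure D2:**
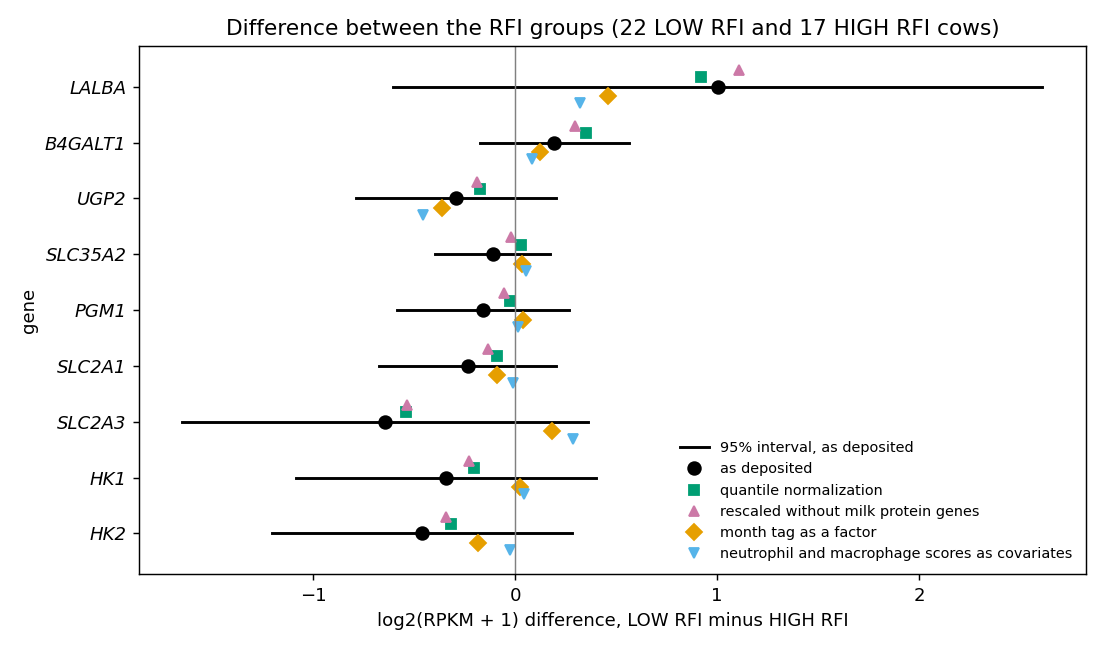
Difference in mean log2(RPKM + 1), LOW RFI minus HIGH RFI, for each of the 9 genes, with 95% intervals as black lines and 4 alternative fits as coloured marks. Every interval includes 0, and the marks for SLC2A3 lie at 0.18 with the month tag and 0.28 with neutrophil and macrophage scores, against -0.64 as deposited.

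Across the 39 cows the 9 genes, UGP2 aside, fell into opposing sets as deposited. LALBA rose with B4GALT1 (Pearson's r = 0.70, Spearman's rho = 0.81, permutation adjusted p = 2.53e-05 and 2.19e-05), and r was 0.79 without the 2 cows farthest from the median of LALBA. It was 0.80 in LOW RFI and 0.61 in HIGH RFI cows, and 0.72 and 0.69 within 2019 and 2020. The family held 36 pairs of members and 45 relations with cell scores, all adjusted together. LALBA fell with HK1 (r = -0.71, rho = -0.88), HK2 (-0.71, -0.84), SLC2A1 (-0.69, -0.75), PGM1 (-0.68, -0.80), SLC35A2 (-0.68, -0.82) and SLC2A3 (-0.56, -0.67), each past the threshold. UGP2 did not pass with LALBA (r = 0.26) or B4GALT1 (r = 0.11, permutation adjusted p = 0.519), nor with HK2 (-0.26). It fell with SLC35A2 (-0.58), SLC2A1 (-0.50), SLC2A3 (-0.45), PGM1 (-0.40) and HK1 (-0.37), each past the threshold. Of the 36 pairs, 16 were positive and 17 negative past the threshold. The share of all gene pairs that would pass was not counted, so these counts are no result about the members.

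HK1 and HK2 had the highest r of the 36 pairs (r = 0.95, rho = 0.87), with r = 0.95 in LOW RFI, 0.96 in HIGH RFI, 0.88 in 2019 and 0.97 in 2020. PGM1 and HK1 gave r = 0.95 and the highest rho, 0.94. Of all tested genes, 86.1% had a negative r with the milk protein score as deposited, 68.4% after rescaling and 56.1% after quantile normalization. As deposited, 8.23% of tested genes had a lower r with it than HK1 and 8.18% a lower one than HK2, and after rescaling 1.90% and 2.40%. After rescaling SLC2A1, PGM1 and SLC35A2 lay nearer the middle of all genes, PGM1 only slightly. As deposited 12.0% of genes lay below SLC2A1 (31.6% rescaled), 13.2% below PGM1 (17.3%) and 9.64% below SLC35A2 (52.0%). SLC2A3 moved away from the middle, with 40.2% of genes below it as deposited and 25.8% rescaled.

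After rescaling, LALBA and B4GALT1 gave r = 0.76, LALBA and HK1 -0.72, LALBA and HK2 -0.72. UGP2 then moved with LALBA (r = 0.50, against 0.26 and adjusted p = 0.126 as deposited). SLC35A2 depended on scaling: its r with LALBA was -0.68 as deposited, -0.24 after rescaling (no longer past the threshold) and 0.072 after quantile normalization.

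**Figure D3:**
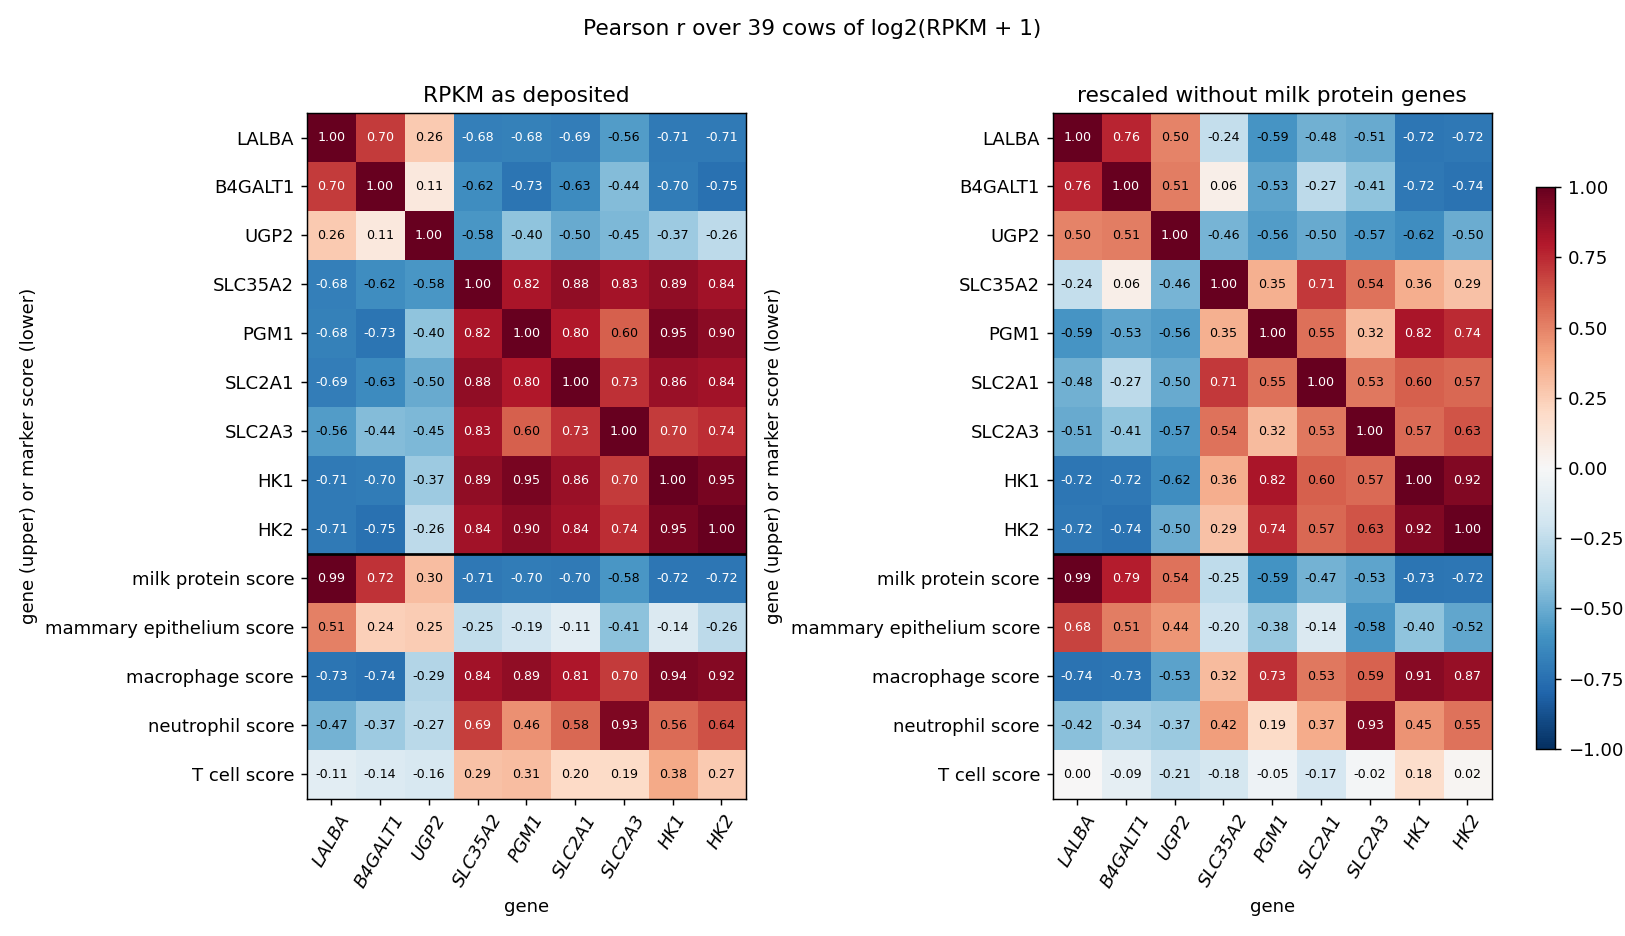
Pearson r over 39 cows between the 9 genes (upper rows) and with 5 cell marker scores (lower rows), as deposited on the left and rescaled without the milk protein genes on the right. HK1, HK2 and PGM1 stay positively related in both (HK1 and HK2 0.95 and 0.92), while LALBA and SLC35A2 change from -0.68 to -0.24.

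The cell scores showed which marker sets each gene moved with. LALBA followed the milk protein score, which does not contain it, at r = 0.99 (rho = 0.99). B4GALT1 followed it at r = 0.72 and UGP2 at 0.30 (adjusted p = 0.0762, 0.54 and past the threshold when rescaled). HK1 and HK2 followed the macrophage score at r = 0.94 and 0.92, and PGM1 at 0.89. Of all tested genes, 99.2% had a lower r with that score than HK1, whose r was 0.91 after rescaling. HK2 then gave 0.87 and PGM1 0.73, and PGM1 gave 0.54 after quantile normalization. SLC2A3 followed the neutrophil score at r = 0.93 (rho = 0.87), with 0.92 without the 2 farthest cows, 0.91 in LOW RFI, 0.96 in HIGH RFI and 0.93 after rescaling. SLC2A1 gave r = 0.81 with the macrophage score and 0.58 with the neutrophil score, where the medians over all tested genes were 0.65 and 0.32. Of all tested genes, 77.0% had a lower r than SLC2A1 with the former and 82.3% with the latter. After rescaling SLC2A1 gave r = 0.53 and 0.37, with 67.4% and 77.4% of genes lower. After quantile normalization it gave 0.38 and 0.20. With the mammary epithelium score, LALBA gave r = 0.51 (adjusted p = 0.00172) and B4GALT1 0.24 (adjusted p = 0.162), which became 0.51 and past the threshold when rescaled. Of the T cell relations, only HK1 passed as deposited (r = 0.38, adjusted p = 0.0231, rho = 0.088). It passed neither after rescaling nor after quantile normalization. The median r with the T cell score over all tested genes was 0.359 as deposited. HK1 therefore lay near the middle of all genes, and this pass does not set it apart.

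**Figure D4:**
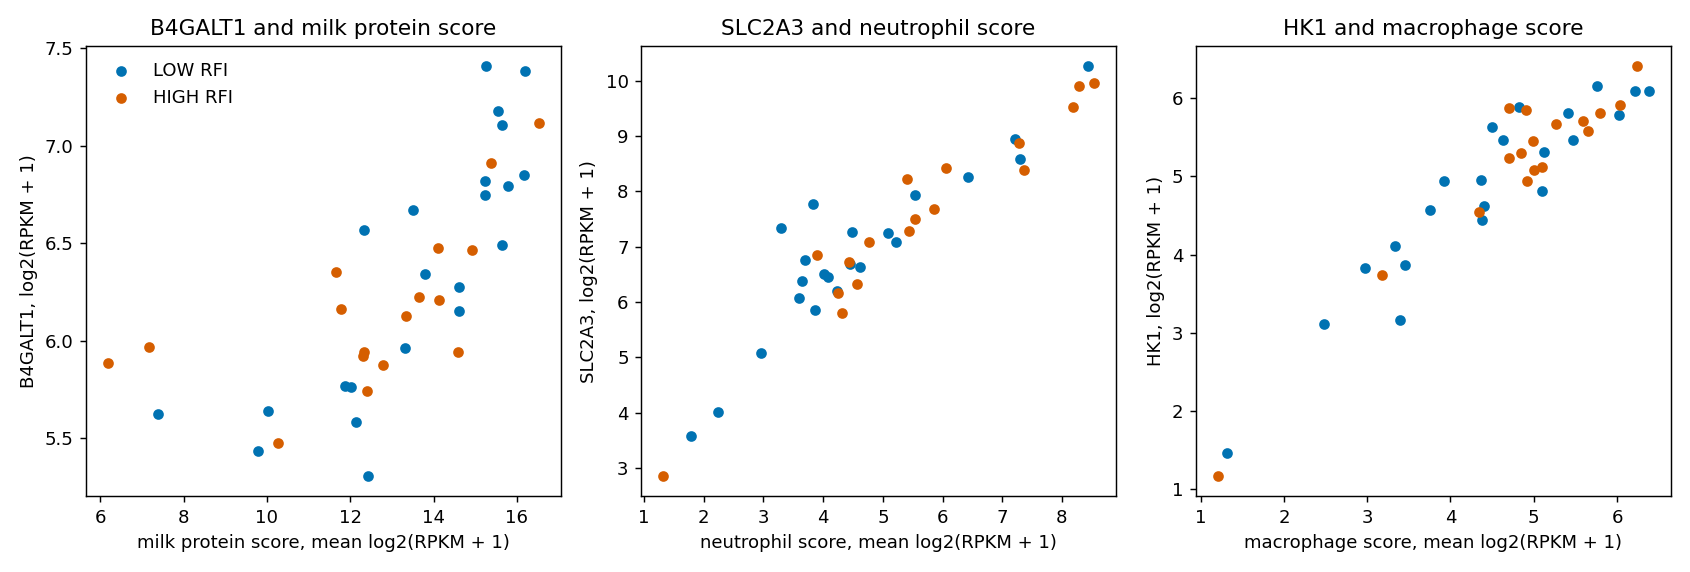
B4GALT1 against the milk protein score, SLC2A3 against the neutrophil score and HK1 against the macrophage score, in log2(RPKM + 1), 1 point per cow, LOW RFI blue and HIGH RFI orange. Pearson's r is 0.72, 0.93 and 0.94, and cows of both groups lie along each trend.

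**Figure D5:**
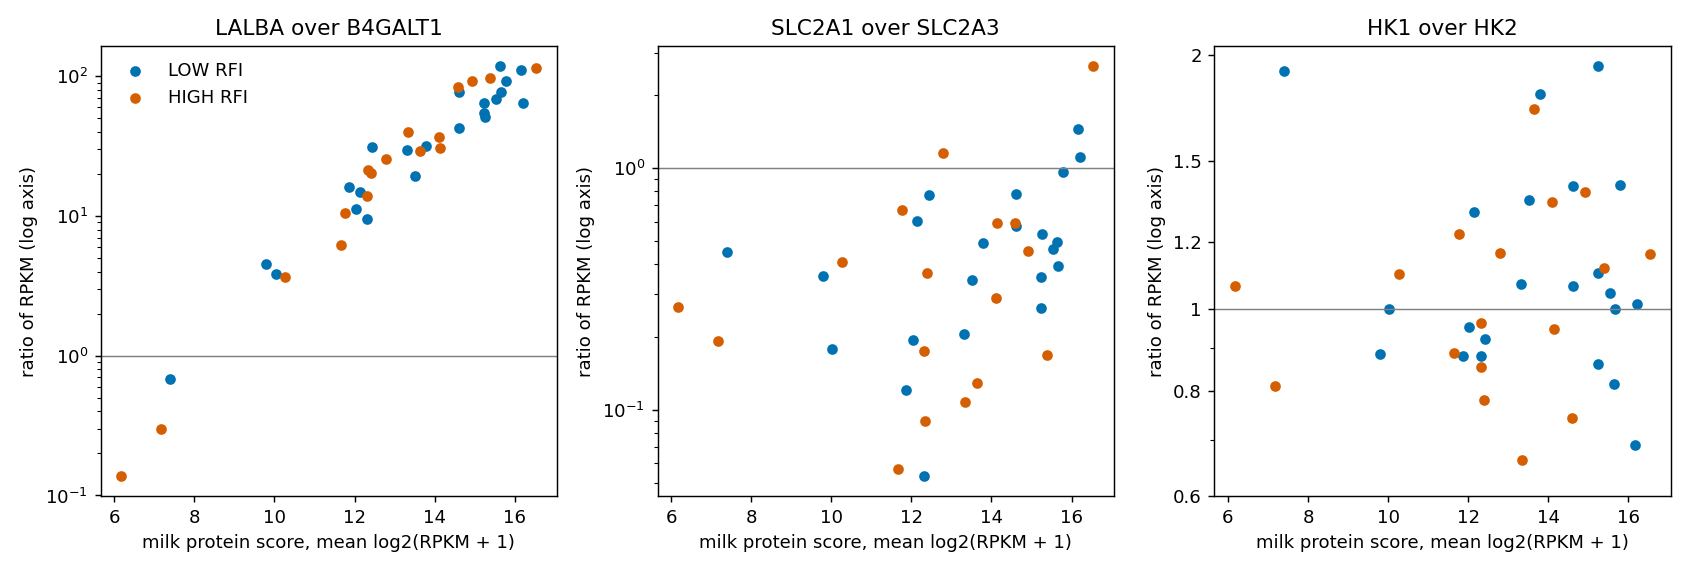
Ratio of RPKM (log axis) within a cow for LALBA over B4GALT1, SLC2A1 over SLC2A3 and HK1 over HK2, against the milk protein score in mean log2(RPKM + 1), LOW RFI blue and HIGH RFI orange, with a line at 1. The LALBA to B4GALT1 ratio spans 0.138 to 117.9, while HK1 to HK2 stays within 0.663 to 1.94.

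Ranked by Spearman's rho over the 39 cows, the genes most like LALBA were SDC2 (0.985), CSN2 (0.981) and GLYCAM1 (0.980). For B4GALT1 they were SLC28A3 (0.894), VIPR1 (0.869) and SLC22A16 (0.864). For UGP2 they were TAX1BP1 (0.942), HBS1L (0.937) and ZNF330 (0.907), and for SLC35A2 they were TFE3 (0.944), IKBKB (0.936) and EHBP1L1 (0.936). PGM1 was most like CCNY (0.944), GUSB (0.944) and PLP2 (0.942). SLC2A1 was most like IGF1R (0.913), NPC1 (0.906) and GYS1, glycogen synthase (0.903). SLC2A3 was most like AKIRIN2 (0.953), IRAK2 (0.952) and NFKB1 (0.946), HK1 like VCP (0.974), SUMF1 (0.972) and NUP188 (0.969), and HK2 like GK, glycerol kinase (0.946), AK4 (0.939) and CD58 (0.916). These are descriptions of likeness over libraries that differ in depth and in their cell markers.

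Genes around the pathway were counted in the same fit, and none passed in either direction. The lists were other glucose and hexose transporters (6 tested of 13), other hexose kinases with the glucose 6-phosphate branch (7 of 8), Leloir pathway and UDP-sugar enzymes (12 of 12), other beta-1,4-galactosyltransferases (6 of 6) and Golgi nucleotide-sugar and ion transporters (10 of 11). Their median differences were -0.25, -0.18, -0.17, -0.12 and -0.15, against -0.12 over all tested genes. The most abundant of each by mean RPKM were SLC2A8 (median 21.9 RPKM) and SLC2A6 (4.15), GPI (325.4), NME2 (257.5) and NME1 (76.6), B4GALT5 (10.4) and B4GALT7 (9.14), and ATP2C2 (22.8) and SLC35B1 (24.0). PGM2, a phosphopentomutase related to PGM1 and named here after its values were seen, had the smallest unadjusted p of these lists. It lay at a median of 3.16 RPKM in LOW RFI and 7.32 RPKM in HIGH RFI cows, with a difference of -0.80 (SE 0.27, unadjusted p = 0.00531, adjusted p = 0.769).

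Of the 41 tested pathway genes, 4 rose with LALBA across the cows and 33 fell, in relations added after seeing the data and adjusted over these 41. After rescaling the counts were 7 and 25, and after quantile normalization 7 and 18. As 86.1% of all tested genes had a negative r with the milk protein score as deposited, which LALBA followed at r = 0.99, the count of 33 is no result about these lists. Among those that also passed after rescaling and quantile normalization were ATP2C2 (a Golgi calcium and manganese pump, r = 0.94 as deposited), GALM (galactose mutarotase, 0.85) and SLC5A1 (the sodium-coupled glucose transporter, 0.79). Under all 3 scalings 18 genes fell with LALBA, among them GPI (r = -0.71, -0.73 and -0.66) and UGDH, UDP-glucose dehydrogenase. After rescaling 68.4% and after quantile normalization 56.1% of all tested genes had a negative r with the milk protein score. The share of all tested genes passing against LALBA was not counted, so none of these counts is a result about the lists.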

How the data were processed

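The authors deposited 1 table of RPKM for 39 libraries, per the file headers, with genes in rows, and the build ARS-UCD1.2 is given per the submitters' processing notes. The sources used here give no aligner, counter, annotation or strand setting, and reads that overlapping or antisense genes share were not told apart. Of the identifiers, 17331 matched a symbol in the reference table, which is of another assembly and was used for names and neighbours only, so no coordinates are given. Values came out as whole reads within a tolerance of 0.02 reads for all 19616 features above 0 in a cow, and the recovered reads entered only limma-voom. No column of values was left unused.

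Differences are LOW RFI minus HIGH RFI from limma-trend (limma 3.58.1, R 4.3.3, robust) on log2(RPKM + 1) for the 10652 features with at least 1 RPKM in at least 17 cows, with Benjamini-Hochberg adjustment over all of them at 0.05. The pseudocount makes differences of low genes look smaller. Correlations and level order used two-sided permutation tests with 100000 resamples in Python 3.11.15, numpy 2.4.6 and pandas 2.3.3, and the smallest p they can give is 1e-05. Scores are mean log2(RPKM + 1) of tested markers, not counting LALBA. Alternatives were other pseudocounts, filters, scalings (quantile; each library rescaled without CSN1S1, CSN1S2, CSN2, CSN3, PAEP, LALBA and GLYCAM1), covariates, library weights, left-out libraries and limma-voom. The steps were tested on simulated data. The members and the lists were chosen with earlier results of these data known. Genes named are the members, for each pathway list the 2 most abundant tested genes and any that pass, the 3 most alike per member, and markers that check the tissue. Some results on genes of the pathway lists are not reported here. Each cow has its own animal number in the labels, and p-values measure the spread between cows.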

Additional observations from a re-analysis of the deposited data

How the results depend on the processing

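With each cow left out in turn, all 351 member differences kept their direction, and no member passed. LALBA then ranged from 0.57 to 1.29, SLC2A3 from -0.93 to -0.49, HK2 from -0.72 to -0.33 and UGP2 from -0.39 to -0.21. Under the other alternatives 130 of 144 member differences kept their direction and their side of the threshold, but several shrank. Without the marked libraries LALBA was at 0.17, B4GALT1 at 0.0073, HK1 at -0.021, HK2 at -0.14 and SLC2A3 at -0.20. With neutrophil and macrophage scores LALBA was at 0.32, B4GALT1 at 0.085, HK2 at -0.025 and SLC2A1 at -0.012, and with the month tag LALBA was at 0.46. Quantile normalization turned SLC35A2 to 0.028. The month tag turned SLC35A2 to 0.034, PGM1 to 0.038, SLC2A3 to 0.18 and HK1 to 0.025. Neutrophil and macrophage scores turned SLC35A2 to 0.055, PGM1 to 0.014, SLC2A3 to 0.28 and HK1 to 0.043. Leaving out the marked libraries turned PGM1 to 0.015, quality weights with the month tag turned SLC35A2 to 0.021 and array weights with the month tag turned SLC2A3 to 0.029. UGP2 passed with array weights (-0.54) and voom quality weights (-0.61), which moved the number of members past the threshold to 1 in each. The cause was not tested.

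The relations were computed again under rescaling, quantile normalization and a pseudocount of 0.1 RPKM. Over these alternatives 180 values kept their direction and their side of the threshold, 21 lost the threshold, 23 gained it and 19 changed sign. Relations that changed sign under rescaling were B4GALT1 with SLC35A2 (0.060), and the T cell score with LALBA (0.0014), SLC35A2 (-0.18), PGM1 (-0.047), SLC2A1 (-0.17) and SLC2A3 (-0.017). Under quantile normalization they were LALBA with SLC35A2 (0.072), B4GALT1 with SLC35A2 (0.36), SLC35A2 with PGM1 (-0.073), HK1 (-0.29) and HK2 (-0.31), the macrophage score with SLC35A2 (-0.16), and the T cell score with LALBA (0.13), B4GALT1 (0.026), SLC35A2 (-0.46), PGM1 (-0.26), SLC2A1 (-0.25), SLC2A3 (-0.084) and HK2 (-0.13). The positive pathway relations with LALBA numbered 7 under each scaling against 4 as deposited, and the negative ones 18 under quantile normalization against 33. Quantile normalization moved the median difference of all tested genes from -0.12 to 0.017. No paired analysis was possible because the labels give no replicate numbers shared between the groups.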
